A study of Mus musculus with 12 samples.

Results

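Hox genes encode homeodomain transcription factors that sit in clusters, and in the embryo their order along a cluster matches the order in which they are switched on along the body axis. Genes at the 3' end of a cluster carry low paralog numbers and are used anteriorly, and genes at the 5' end carry high paralog numbers and are used posteriorly. Fibroblasts taken from adult organs often keep part of this code in culture, and in the gut the mesenchyme, more than the epithelium, carries a nested Hox pattern. TGF-beta binds TGFBR2 and TGFBR1 and signals through SMAD proteins, and in fibroblasts it is known for inducing matrix and contractile genes.

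The 39 genes described here are the rows whose mouse symbol is Hoxa, Hoxb, Hoxc or Hoxd followed by a number, out of 25203 gene rows. They make up the HoxA, HoxB, HoxC and HoxD clusters, which lie on chromosomes 6, 11, 15 and 2 in GRCm38. RNA was sequenced from primary mouse mesenchymal cells, described by the submitters as Pdgfra-lo H2B-GFP cultures, in 12 libraries that form 4 groups of 3. The Vehicle and TGFB1 groups carry no knockout label and received vehicle or exogenous TGF-beta 1, and the Vehicle_Tgfbr2KO and TGFB1_KO groups are labelled as cells with knockout of Tgfbr2 and received the same treatments. The design text frames the knockout arm as a way to measure responses to TGF-beta 1 outside the canonical pathway. Dose, duration, passage, the organ or gut region of origin (the series title names the intestinal epithelium), animal age and the way Tgfbr2 was deleted are not given in the sources used here. The labels give each group replicates 1, 2 and 3, in which order values are listed below, and same-numbered libraries also share a number in their descriptions over the 4 groups. They do not say that these are separate animals or cultures, so p-values measure the spread between these libraries, which may be technical.

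Values are FPKM, fragments scaled to transcript length and library size, so levels of different genes can be set side by side. Read depth is unknown, because the table holds no counts. Between 16969 and 18100 genes were above 0 in a library. Fibroblast markers were present throughout, with a summed level over 10 genes of 3801 to 13871 FPKM. Of 12 epithelial markers 7 stayed under 1 FPKM in every library, with Cdx1 and Cdx2 at 0. Krt19 read 1.51 to 13.9 FPKM. Krt8 and Krt18 reached 25.8 and 21.8 in Vehicle_Tgfbr2KO replicate 1 and 7.80 and 9.47 in TGFB1_KO replicate 1, and stayed under 1 elsewhere. Epcam (highest 1.02) and Cdh1 (1.32) each reached 1 FPKM in 1 library. Tgfbr2 itself read 48.0, 38.2 and 78.8 FPKM in Vehicle, 56.5, 70.6 and 74.6 in TGFB1, 27.0, 35.2 and 41.9 in Vehicle_Tgfbr2KO and 31.6, 38.0 and 62.4 in TGFB1_KO. The gene was thus still read in the libraries labelled as knockout, at 0.631 times the Vehicle mean with vehicle (adjusted p = 0.260, limma) and 0.655 times the TGFB1 mean with TGF-beta 1 (adjusted p = 0.119). A value per gene does not show whether a deleted exon is among what was read.

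The cells expressed an anterior to middle Hox code dominated by HoxB. A mean of at least 1 FPKM was reached by 16 of the 39 members in each of the 4 groups. Among them were Hoxa2 to Hoxa5, Hoxb2 to Hoxb9, and Hoxc4, Hoxc5 and Hoxc6, with no member of HoxD. HoxB held 66.7% to 79.9% of the summed Hox FPKM of a library, HoxC 10.7% to 21.7%, HoxA 9.00% to 13.4% and HoxD 0.223% to 1.25%, where the sum itself ran from 159 to 235 FPKM. The map of group means by cluster and paralog group shows the block from Hoxb2 to Hoxb9 as the strongest feature, with paralog groups 10 to 13 under 0.25 FPKM in all clusters.

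**Figure D1:**
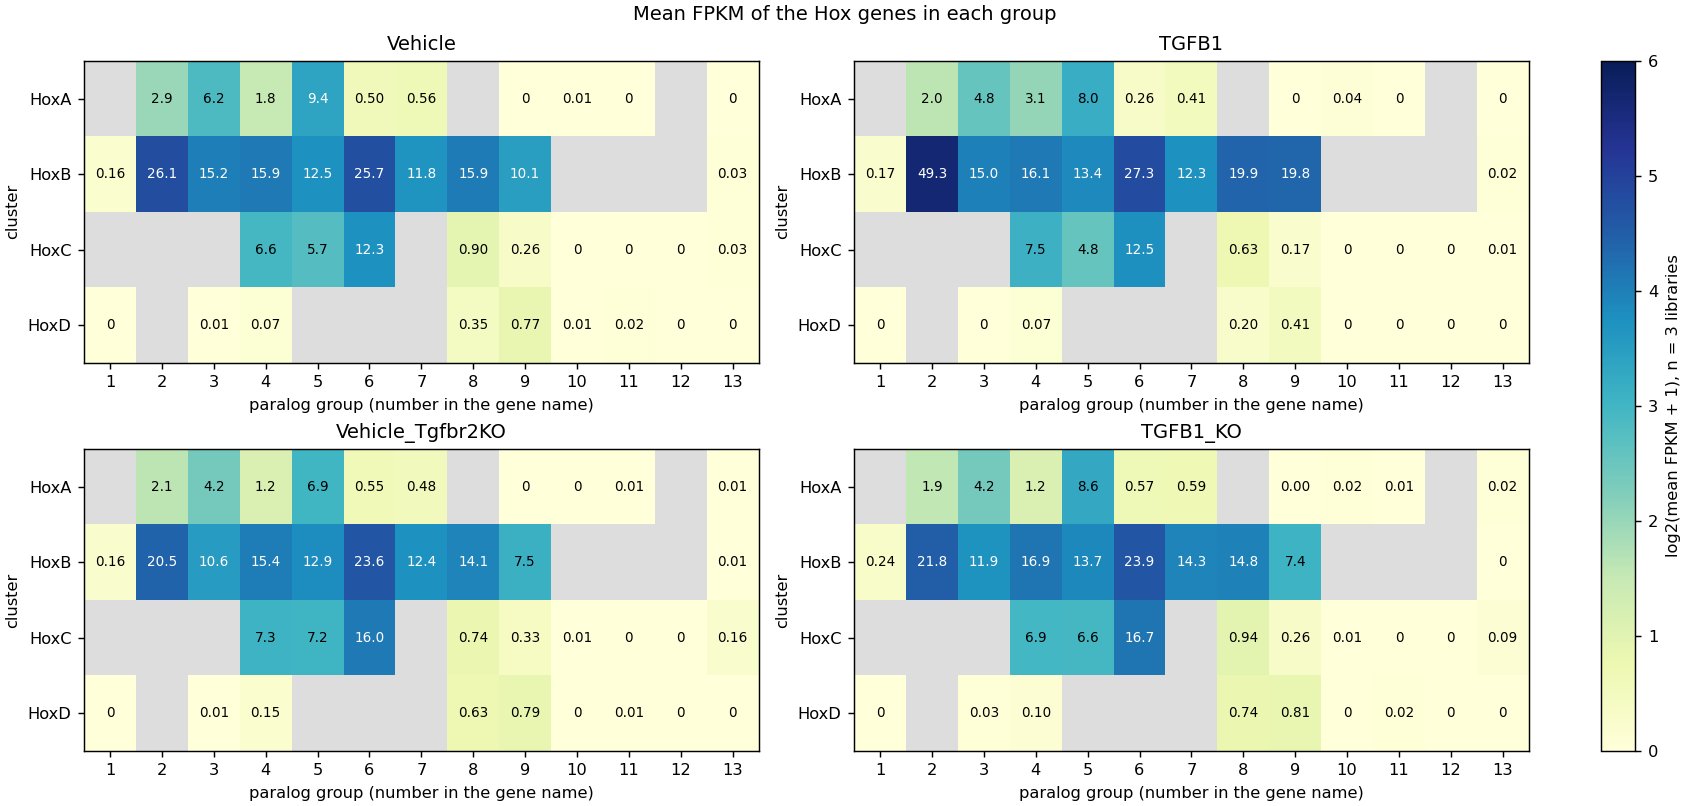
Mean FPKM (n = 3 libraries) of each Hox gene, with clusters A to D as rows and paralog groups 1 to 13 as columns, in 1 panel for each of the 4 groups; the colour scale is logarithmic, and grey cells have no gene or are not shown. Hoxb2 to Hoxb9 form the brightest row in every panel, and no HoxD gene reaches a group mean of 1 FPKM.

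Hoxb2 was the highest member by its mean over the 12 libraries, at 29.4 FPKM, followed by Hoxb6 at 25.1, Hoxb8 at 16.2, Hoxb4 at 16.1, Hoxc6 at 14.4 and Hoxb3 at 13.2. Hoxb5 (13.1), Hoxb7 (12.7) and Hoxb9 (11.2) came next, and along this order the range of each gene over the 12 libraries overlapped that of the next. The first rank of Hoxb2 came from the TGFB1 group, with a mean of 49.3 against 27.3 for Hoxb6. In Vehicle the means of Hoxb2 and Hoxb6 were 26.1 and 25.7. Hoxb6 was the higher in Vehicle_Tgfbr2KO (23.6 against 20.5) and TGFB1_KO (23.9 against 21.8). Hoxb6, widely expressed in lateral mesoderm, read 30.2, 27.1 and 20.0 FPKM in Vehicle and 30.3, 26.8 and 24.8 in TGFB1. With the knockout label it read 23.8, 23.4 and 23.6 with vehicle and 24.9, 22.2 and 24.6 with TGF-beta 1. Its libraries with and without TGF-beta 1 overlapped in both genotypes. Hoxb4, best known from blood stem cells, read 16.6, 15.8 and 15.4 FPKM in Vehicle, 15.2, 17.2 and 16.0 in TGFB1, 15.9, 15.8 and 14.4 in Vehicle_Tgfbr2KO and 15.0, 17.3 and 18.4 in TGFB1_KO. All of its libraries lay between 14.4 and 18.4 FPKM, and the 4 groups overlapped. Hoxb3, an anterior gene, read 13.9, 15.0 and 16.7 FPKM in Vehicle and 15.1, 14.5 and 15.3 in TGFB1. Its Vehicle_Tgfbr2KO libraries read 8.74, 10.8 and 12.2, all under the lowest Vehicle library, and TGFB1_KO read 10.1, 10.3 and 15.3.

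The other 23 members were low or silent. Hoxc8, a thoracic-level gene, had group means of 0.633 to 0.943 FPKM and entered the tests because 4 libraries reached 1 FPKM. Hoxd9 reached 1 FPKM in 2 libraries, with a highest value of 1.09. Hoxa6, Hoxa7, Hoxb1, Hoxc9 and Hoxd8 peaked between 0.25 and 1 FPKM. Hoxb1 and Hoxa6 lie at the edges of the expressed stretches: Hoxb1 never exceeded 0.320 FPKM beside Hoxb2, and Hoxa6 never exceeded 0.748 beside Hoxa5, whose lowest library was 6.57. The posterior genes Hoxa9, Hoxa10, Hoxa11, Hoxa13, Hoxb13, Hoxc10, Hoxc13, Hoxd10 and Hoxd11, and the anterior Hoxd3 and Hoxd4, stayed under 0.25 FPKM everywhere. Hoxc11, Hoxc12, Hoxd1, Hoxd12 and Hoxd13 were listed at 0 in all 12 libraries.

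To ask which Hox genes change, log2(FPKM + 1) was fitted with limma over the 12641 genes that reached 1 FPKM in 3 or more libraries, and p-values were adjusted by Benjamini-Hochberg over all of them, with a threshold of 0.05. Of the 39 members 17 passed this filter, among them Hoxa2 to Hoxa5, Hoxb2 to Hoxb9, Hoxc4, Hoxc5, Hoxc6 and Hoxc8. Log2 changes below are on the log2(FPKM + 1) scale, which understates the change of low genes, and folds are ratios of mean FPKM. These are bulk cultures, so fewer cells of a type and less RNA per cell cannot be told apart.

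With TGF-beta 1 in the cells without the knockout label, Hoxb2, Hoxb9 and Hoxa4 rose and Hoxa2 fell, 4 of the 17 tested members. The background was high: 31.9% of all tested genes passed the threshold in TGFB1 minus Vehicle, 17.3% upward and 14.6% downward, so the 23.5% of Hox genes was below the share over all genes. With each library scaled to a common sum, where the median log2 change of all genes was -0.11, the 2184 rises and 1849 falls over all genes became 1166 and 2827. The median log2 change of the 17 members was 0.04, beside 0.02 over all tested genes.

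Hoxb2, which patterns the hindbrain and anterior body, read 24.0, 26.3 and 28.1 FPKM in Vehicle and 49.2, 47.1 and 51.7 in TGFB1. With the knockout label it read 20.1, 20.2 and 21.3 with vehicle and 20.4, 20.7 and 24.3 with TGF-beta 1. The 3 TGFB1 libraries thus stood apart from the 9 others. The rise over Vehicle was 1.89-fold, 0.89 on the log2 scale (SE 0.079, adjusted p = 3.03e-05), and higher in 3 of 3 same-numbered pairs.

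Hoxb9, a gene of the thoracic skeleton and the most 5' member of the expressed HoxB block, read 12.0, 10.0 and 8.29 FPKM in Vehicle and 21.2, 21.1 and 17.0 in TGFB1. It read 7.55, 6.42 and 8.65 in Vehicle_Tgfbr2KO and 6.36, 6.19 and 9.64 in TGFB1_KO. The TGFB1 libraries were again the 3 highest of the 12. The rise over Vehicle was 1.95-fold, 0.91 on the log2 scale (SE 0.18, adjusted p = 0.00338). Hoxb2 and Hoxb9 passed the threshold in all 23 alternative settings of this comparison.

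Hoxa4 was a low member that moved the same way. It read 1.87, 1.46 and 2.02 FPKM in Vehicle, 3.42, 2.92 and 2.98 in TGFB1, 1.32, 0.733 and 1.56 in Vehicle_Tgfbr2KO and 1.12, 0.929 and 1.60 in TGFB1_KO. The TGFB1 libraries did not overlap any other group, and the rise over Vehicle was 1.74-fold, 0.56 on the log2 scale (SE 0.16, adjusted p = 0.0238). This call was lost with scaling to a common sum (adjusted p = 0.0723) and without Vehicle replicate 2 (0.0842), TGFB1 replicate 1 (0.0837) or TGFB1 replicate 3 (0.0544).

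Hoxa2, which sets identity in the branchial arches, went the other way. It read 2.72, 2.67 and 3.38 FPKM in Vehicle, 2.05, 1.83 and 2.21 in TGFB1, 2.14, 1.74 and 2.29 in Vehicle_Tgfbr2KO and 1.69, 1.71 and 2.44 in TGFB1_KO. The Vehicle libraries were the 3 highest, and the other 3 groups overlapped each other. The TGFB1 mean was 1.44-fold lower than Vehicle, a log2 change of -0.37 (SE 0.13, adjusted p = 0.0453). The call was close to the threshold: it was lost with no filter on low values (adjusted p = 0.0751), with a filter at 0.1 FPKM (0.0528), and without any 1 of the Vehicle or TGFB1 libraries, Vehicle_Tgfbr2KO replicates 1 or 3, or TGFB1_KO replicate 2 (0.0526 to 0.146).

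**Figure D2:**
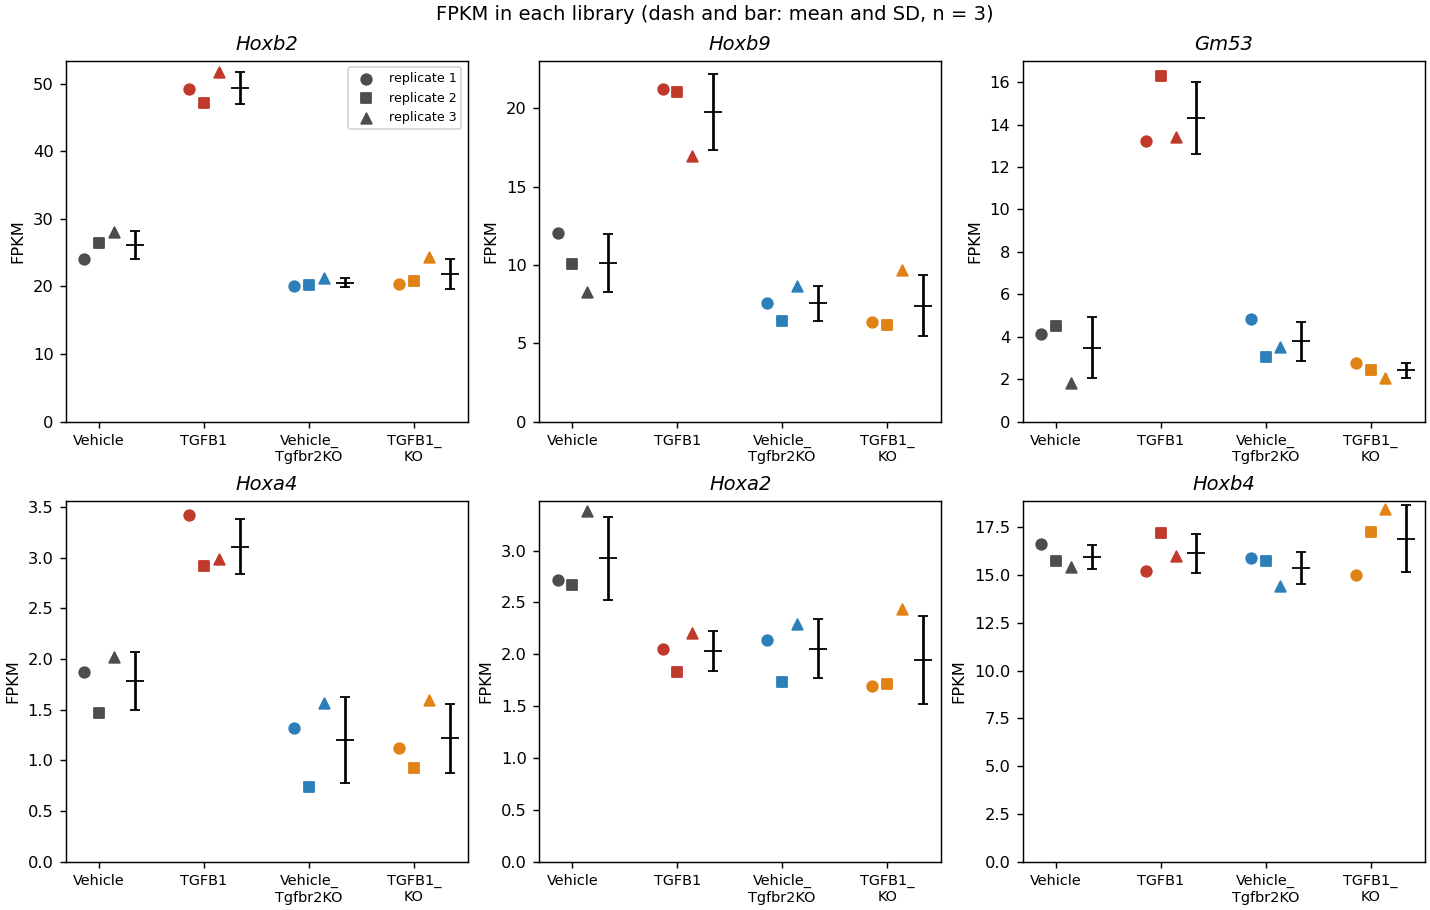
FPKM in each of the 12 libraries (points, shaped by replicate, with the group mean and SD beside them) for Hoxb2, Hoxb9, the noncoding RNA Gm53, Hoxa4, Hoxa2 and Hoxb4 in the 4 groups. The TGFB1 libraries stand above all others for Hoxb2 (47.1 to 51.7 FPKM), Hoxb9, Gm53 and Hoxa4, the Vehicle libraries stand highest for Hoxa2, and Hoxb4 overlaps in all groups.

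Hoxa2 and Hoxb2 are paralogs of the same group that moved in opposite directions, and their DNA-binding regions are shown because the pair encodes the same homeodomain. Over the 60 codons of the homeobox, 60 residues were identical, while 134 of 180 bases (74.4%) matched. The sequences are the coding strand of the GENCODE M21 transcripts Hoxa2-201 (bases 602 to 781) and Hoxb2-201 (bases 601 to 780) on GRCm38, 5' to 3', with capitals at the 46 bases where they differ.
Hoxa2: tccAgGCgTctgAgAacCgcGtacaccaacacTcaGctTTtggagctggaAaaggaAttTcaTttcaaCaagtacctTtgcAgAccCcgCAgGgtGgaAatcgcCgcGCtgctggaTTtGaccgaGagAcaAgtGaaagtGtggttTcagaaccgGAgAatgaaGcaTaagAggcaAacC
Hoxb2: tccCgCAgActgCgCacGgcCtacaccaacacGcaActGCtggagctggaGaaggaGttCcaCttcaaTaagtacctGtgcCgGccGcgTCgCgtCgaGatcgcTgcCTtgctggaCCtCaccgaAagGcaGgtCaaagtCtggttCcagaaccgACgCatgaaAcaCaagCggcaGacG
The differing bases are spread over the whole box. The 2 genes share sequence with other annotated genes rather than with each other. Of the 31-base words of Hoxb2 transcripts, 26.5% also occur, on either strand, in Hoxb3os, which is annotated on the opposite strand. Of those of Hoxa2, 13.7% occur in Gm28308. The strand setting of the reads is not stated, so reads from such overlaps cannot be told apart. For Hoxb9 the shared part was 0.782%, and for Hoxa4 it was 14.4%, all with Gm29430.

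The rest of HoxB between these ends did not pass the threshold with TGF-beta 1. From Hoxb3 to Hoxb8 the 6 log2 changes lay between -0.02 and 0.30, with 95% limits from -0.35 to 0.58 and adjusted p from 0.0904 to 0.949. The largest was Hoxb8, which read 17.5, 15.3 and 14.9 FPKM in Vehicle, 22.0, 20.8 and 16.9 in TGFB1, 16.3, 12.5 and 13.7 in Vehicle_Tgfbr2KO and 15.8, 12.8 and 15.7 in TGFB1_KO. The Vehicle and TGFB1 groups overlapped, and its adjusted p was 0.0904. Hoxb8 passed without TGFB1 replicate 3 (0.0407) and when the replicate number was fitted as a block (0.0293), which made 5 members, against 41.5% of all genes with the block. Ratios to a neighbour within a library do not depend on how libraries are scaled. By this measure the ratio of Hoxb2 to Hoxb3 was 1.72 ± 0.036 (SD, n = 3) in Vehicle and 3.29 ± 0.072 in TGFB1, against 1.97 ± 0.29 in Vehicle_Tgfbr2KO and 1.87 ± 0.25 in TGFB1_KO. The ratio of Hoxb9 to Hoxb8 was 0.634 ± 0.069, 0.993 ± 0.025, 0.537 ± 0.085 and 0.499 ± 0.11 in the same order. For both ratios the 3 TGFB1 libraries were the highest of the 12. Of the 31-base words of Hoxb3, 52.7% occur in other genes, nearly all of them in Hoxb3os, which limits the first ratio.

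In HoxA the ratio of Hoxa4 to Hoxa5 was 0.190 ± 0.023 in Vehicle and 0.388 ± 0.015 in TGFB1, and 0.173 ± 0.055 and 0.142 ± 0.030 in the knockout-labelled groups with vehicle and TGF-beta 1. Hoxa5, needed in lung and stomach development, did not overlap between Vehicle and TGFB1 (means 9.37 and 8.01 FPKM) but had an adjusted p of 0.168. In all, 5 of 17 members did not overlap between these groups, against 47.9% of all tested genes. None of the 4 tested HoxC members passed, with log2 changes of -0.22 to 0.15.

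**Figure D3:**
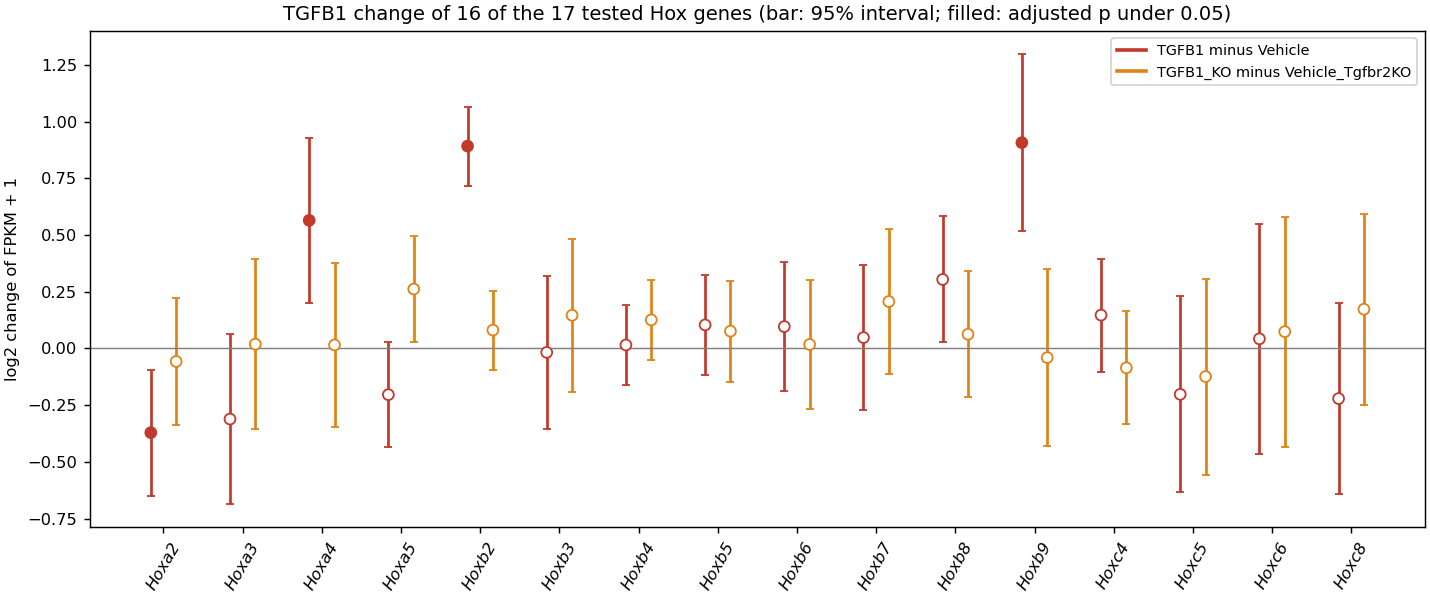
Log2 change with TGF-beta 1 of 16 of the 17 tested Hox genes, as points with 95% confidence intervals from the limma fit, in the cells without the knockout label (TGFB1 minus Vehicle) and in the knockout-labelled cells (TGFB1_KO minus Vehicle_Tgfbr2KO); filled points passed the threshold. Hoxb2, Hoxb9 and Hoxa4 lie above 0 without the knockout label, Hoxa2 lies below it, and the 16 knockout points lie between -0.12 (Hoxc5) and 0.26 (Hoxa5).

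In the knockout-labelled cells TGF-beta 1 changed no Hox gene past the threshold, which was also so for all tested genes (0% called). At an unadjusted p under 0.05, 1 of 17 members passed in limma, beside 5.92% of all tested genes: Hoxa5, which was higher by 0.26 on the log2 scale (adjusted p = 0.738). Hoxb2 differed by 0.08 (95% limits -0.09 to 0.26), Hoxb9 by -0.04 (-0.43 to 0.35) and Hoxa4 by 0.02 (-0.35 to 0.38). No member had groups without overlap, against 11.8% of all tested genes. The lowest adjusted p among the members with the replicate number as a block was 0.290.

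The difference between the TGF-beta 1 responses of the 2 genotypes passed the threshold for 2 of 17 members, both negative, against 17.6% of all tested genes and 9.26% in that direction. The response of Hoxb2 with the knockout label differed from that without it by -0.81 on the log2 scale (SE 0.11, adjusted p = 0.00110), and that of Hoxb9 by -0.95 (SE 0.25, adjusted p = 0.0269). For Hoxb9 the call was lost without Vehicle replicates 2 or 3, TGFB1 replicates 1 or 2, Vehicle_Tgfbr2KO replicates 1 or 3, or TGFB1_KO replicate 2, at adjusted p of 0.0515 to 0.0668. Hoxa4 differed by -0.55 (adjusted p = 0.129) and Hoxa5 by 0.47 (adjusted p = 0.0541), and both passed with the replicate number as a block, at 0.0362 and 0.0309. Hoxa5 also passed with scaling to a common sum. The block made 4 members, against 28.9% of all genes with the block.

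Under TGF-beta 1, the knockout-labelled cells had lower Hoxb2, Hoxb9, Hoxa4 and Hoxb8 than the cells without the label, 4 of 17 members where 33.9% of all genes passed and 18.3% were lower. This comparison shares the TGFB1 libraries with the first one, so the 2 are not independent. Hoxb2 differed by -1.14 (adjusted p = 3.84e-06), Hoxb9 by -1.32 (0.000274), Hoxa4 by -0.90 (0.00188) and Hoxb8 by -0.40 (0.0300). The first 3 passed in all 22 alternatives. Hoxb8 was lost with scaling to a common sum (adjusted p = 0.0833), with only these 2 groups fitted (0.0631), and without TGFB1 replicate 1 (0.110), TGFB1 replicate 2 (0.0893) or TGFB1_KO replicate 2 (0.112).

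With vehicle alone, 0 of 17 members passed between the genotypes in limma, against 1.24% of all tested genes. At an unadjusted p under 0.05, 5 members were lower in Vehicle_Tgfbr2KO, beside 21.9% of all genes in either direction. These were Hoxb2 (log2 change -0.33, adjusted p = 0.0665), Hoxa5 (-0.39, 0.0912), Hoxb3 (-0.49, 0.119), Hoxa2 (-0.36, 0.150) and Hoxa3 (-0.48, 0.152). Hoxa2, Hoxa5, Hoxb2 and Hoxb3 did not overlap between these groups, 4 of 17 that were lower in this way, where 15.6% of all genes were. With the replicate number as a block, these 4 passed as lower and Hoxc6 as higher, where 15% of all genes passed. The pairing by number across genotypes was uneven. TGFB1_KO replicate 3 enters this comparison only through the shared estimate of the spread. With this library left out and no block, 3 members passed: Hoxa5 (0.0343), Hoxb2 (0.0257) and Hoxb3 (0.0347). Calls rose over all 12641 genes as well, to 329 higher and 419 lower, from 66 and 91 with all libraries.

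Marker sums moved with TGF-beta 1 as well. In the cells without the knockout label, the summed fibroblast markers were 7034 to 12101 FPKM in Vehicle and 12579 to 13871 in TGFB1, and the summed smooth muscle and pericyte markers 1969 to 2445 and 2907 to 3240. Actg2 and Cnn1, which made up most of the latter sum, and Cspg4 rose, while Kcnj8 (2.65 to 0.215 FPKM) and Notch3 (4.10 to 2.03) fell and Myh11 was at 156 and 163. Pdgfra, the gene in the name of these cells, fell from 142 ± 20.7 FPKM (SD, n = 3) to 15.2 ± 4.01 (adjusted p = 0.000197). It is on the fibroblast list, whose members did not move together. Fn1 (log2 change 1.53, adjusted p = 0.000210, limma) and Vim (0.63, adjusted p = 0.00119) rose. The rest did not pass in the fit without the block. Of these, Col1a1 (0.54) and Col1a2 (0.45) were higher. Lum (-2.04), Col3a1 (-1.05), Dcn (-0.42), Thy1 (-0.16) and Pdgfrb (-0.04) were lower. The summed epithelial markers were 5.72 to 9.00 and 2.29 to 4.65 FPKM, and the summed mesothelial markers 5.80 to 8.57 and 1.60 to 3.53. Krt19, which is on both lists, made up 57.3% to 93.4% of the first sum and 72.2% to 95.8% of the second, and it fell from a mean of 6.56 to 2.51. The leukocyte sum spanned 37.5 to 601 in Vehicle and 13.5 to 279 in TGFB1, with Cd3e and Cd79a under 1 in every library. Between the genotypes, the summed fibroblast markers were lower with the knockout label, at 3801 to 5383 FPKM with vehicle and 4726 to 9357 with TGF-beta 1, and did not overlap the unlabelled groups given the same treatment. The epithelial sums there were 7.66 to 64.9 and 6.60 to 27.8, and the mesothelial sums 7.24 to 19.8 and 6.54 to 10.7. The part of these differences in the Hox values was not tested.

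Of 20 listed noncoding RNAs of the clusters, 14 had a row and 6 were tested. With TGF-beta 1, 1 rose and 1 fell, both in HoxB, where 17.3% of all tested genes rose and 14.6% fell. Gm53, which lies between Hoxb13 and Hoxb9 in the annotation and on the same strand, read 4.12, 4.52 and 1.82 FPKM in Vehicle and 13.2, 16.3 and 13.4 in TGFB1. It read 4.82, 3.05 and 3.50 in Vehicle_Tgfbr2KO and 2.75, 2.45 and 2.05 in TGFB1_KO. The TGFB1 libraries stood far above the rest, with a change of 1.82 on the log2 scale (SE 0.23, adjusted p = 0.000304) and a difference between genotypes of -2.30 (adjusted p = 0.00147). Hoxb5os, on the opposite strand, comes between Hoxb7 and Hoxb6 by lowest coordinate, and 10.5% of its 31-base words also occur in Hoxb5. It read 22.2, 15.8 and 26.0 FPKM in Vehicle and 10.6, 10.8 and 9.24 in TGFB1. With the knockout label it read 16.0, 16.7 and 15.2 with vehicle and 13.9, 13.3 and 21.7 with TGF-beta 1. Here the TGFB1 libraries were the lowest (log2 change -0.97, SE 0.19, adjusted p = 0.00381). Hotairm1, from HoxA, was the highest of these RNAs at 61.4 ± 3.15 FPKM in Vehicle and did not pass (log2 change -0.30, adjusted p = 0.396). Hottip, from the 5' end of HoxA, was listed at 0 in every library, and Hotair, from HoxC, did not exceed 0.025 FPKM.

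The order along HoxB, by lowest coordinate, thus ran from the 5' end from a large rise at Gm53 and a rise at Hoxb9 to the rise at Hoxb2. Between them came 6 coding genes and Hoxb3os, which did not pass, and a fall at Hoxb5os. Hoxb13 and Hoxb1, at the ends, were too low to test.

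**Figure D4:**
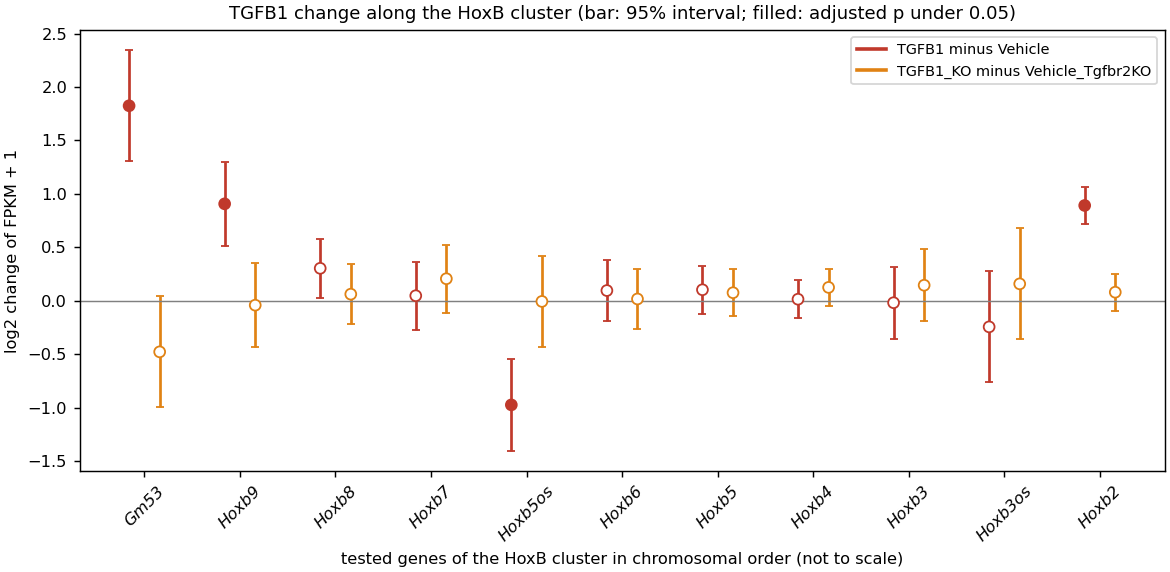
Log2 change with TGF-beta 1 (points, with 95% confidence intervals) for the tested genes of the HoxB cluster. Genes are in order of their lowest chromosomal coordinate (spacing not to scale). Shown are TGFB1 minus Vehicle (red) and TGFB1_KO minus Vehicle_Tgfbr2KO (orange), and filled points passed the threshold. Gm53 (1.82), Hoxb9 (0.91) and Hoxb2 (0.89) lie above 0 without the knockout label, Hoxb5os lies below, and Hoxb3 to Hoxb7 lie near 0.

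The hairpin gene Mir196a-1 sits in the same stretch, between Gm53 and Hoxb9, and its row was looked up after the values of Hoxb9 and Gm53 were seen. It read 13.1, 10.2 and 1.61 FPKM in Vehicle, 27.6, 22.2 and 13.1 in TGFB1, 9.79, 6.69 and 8.91 in Vehicle_Tgfbr2KO and 8.36, 10.7 and 7.56 in TGFB1_KO. Vehicle and TGFB1 overlapped, and the log2 change of 1.50 (SE 0.53) had an adjusted p of 0.0532, or 0.0226 with the replicate number as a block. Other hairpin rows of the clusters were looked up too. Mir10a, also in HoxB, changed by 0.03 (adjusted p = 0.978, limma) and Mir615, from HoxC, by -1.65 (0.130), each at 0 in 8 libraries. Mir196a-2, Mir196b and Mir10b were listed at 0 in all 12. How many reads stood behind the values of such short rows is not known. A row from polyadenylated RNA reads host or precursor transcripts, and the mature miRNA was not measured. The product of Mir196a-1 is a known regulator of Hox messages and is shown for that reason, from RefSeq on GRCm38.p6, chr11:96265187-96265208, plus strand, with the seed (bases 2 to 8) in capitals.
mmu-miR-196a-5p: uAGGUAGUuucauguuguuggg

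HOX proteins bind DNA with TALE homeodomain partners of the Pbx, Meis and Pknox families, and all 9 of these genes were tested. With TGF-beta 1, 2 of 9 fell and 0 rose, where 14.6% of all genes fell and 17.3% rose, and their median log2 change was -0.21, beside 0.02 over all tested genes. Meis2 read 13.4, 14.1 and 20.5 FPKM in Vehicle, 5.21, 6.11 and 4.55 in TGFB1, 9.59, 11.6 and 13.3 in Vehicle_Tgfbr2KO and 11.2, 12.6 and 20.6 in TGFB1_KO. It was 3.02-fold lower with TGF-beta 1 (log2 change -1.42, SE 0.22, adjusted p = 0.00103). Meis1 read 14.6, 17.0 and 21.5 FPKM in Vehicle, 8.11, 10.0 and 10.2 in TGFB1, 10.6, 13.5 and 15.6 in Vehicle_Tgfbr2KO and 11.3, 14.8 and 21.5 in TGFB1_KO. It was 1.87-fold lower (log2 change -0.83, SE 0.22, adjusted p = 0.0153). For both genes the TGFB1 libraries were the 3 lowest of the 12. The response differed between the genotypes by 1.72 for Meis2 (adjusted p = 0.00514) and by 1.04 for Meis1 (adjusted p = 0.0414).

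Polycomb complexes keep Hox clusters silent and trithorax and MLL complexes keep them active. Of 25 tested Polycomb genes 3 rose and 4 fell with TGF-beta 1, 7 in all, a share close to the 31.9% of all genes called. In the blocked fit 4 rose and 5 fell, where 41.5% of all genes were called. Eed, a core subunit of the complex that methylates histone H3 at lysine 27, rose from 20.7 ± 1.98 to 38.7 ± 2.28 FPKM (log2 change 0.87, adjusted p = 4.77e-05). Cbx6, a chromodomain subunit, fell from 31.1 ± 5.08 to 11.8 ± 0.248 (-1.32, adjusted p = 0.000120), and Phf19, an accessory subunit, from 3.30 ± 0.899 to 0.977 ± 0.163 (-1.10, adjusted p = 0.000455). Of 15 tested trithorax and MLL genes, Kansl1 rose (0.20, adjusted p = 0.0124) and Psip1, which tethers MLL to chromatin, fell (-0.73, adjusted p = 0.00185). With the replicate number as a block 4 passed, against the same 41.5% of all genes. None of 9 ParaHox, Cdx, Evx and Mnx1 genes could be tested, and Cdx1, Cdx2 and Cdx4, which act upstream of Hox genes in the embryo, were listed at 0 throughout.

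Other transcription factors mark regions of gut or body-wall mesenchyme. Of 27 tested, 12 fell and 0 rose with TGF-beta 1, where 14.6% of all genes fell. In the fit blocked on replicate number, 14 fell and 1 rose, where 2367 of all 12641 genes fell and 2873 rose. The largest falls were those of Tcf21, from 9.45 ± 2.82 to 0.188 ± 0.0942 FPKM (log2 change -3.10, adjusted p = 1.00e-05), Prrx1, from 20.2 ± 5.11 to 3.77 ± 1.23 (-2.16, adjusted p = 3.12e-05), and Prrx2, from 32.4 ± 8.43 to 12.9 ± 0.881 (-1.23, adjusted p = 0.00338). Whether this share differs from that of the Hox genes was not tested. In Vehicle_Tgfbr2KO minus Vehicle and in TGFB1_KO minus Vehicle_Tgfbr2KO, no member of any of these lists passed in the fit without the block.

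Some Hox genes followed the replicate number rather than the treatment. A moderated F-test of the number over the 4 groups called 3 of 17 members, among them Hoxc6 and Hoxc5, against 9.59% of all tested genes. Hoxc6, a gene of the brachial and thoracic level, read 16.4, 10.4 and 9.99 FPKM in Vehicle, 15.2, 11.4 and 10.9 in TGFB1, 20.9, 13.6 and 13.3 in Vehicle_Tgfbr2KO and 20.8, 14.1 and 15.2 in TGFB1_KO. Replicate 1 was highest in 4 of 4 groups, at a mean of 18.3 over the groups beside 12.4 for each of the other 2 (adjusted p = 0.00196). Hoxc5, its neighbour, read 6.98, 5.19 and 4.99 FPKM in Vehicle, 5.71, 4.48 and 4.29 in TGFB1, 8.33, 6.57 and 6.56 in Vehicle_Tgfbr2KO and 8.92, 6.28 and 4.72 in TGFB1_KO (adjusted p = 0.0248). It was also highest in replicate 1 in all 4 groups. Hoxc6 stayed past the threshold without any 1 library. It was the only member called without Vehicle replicates 1 or 3, Vehicle_Tgfbr2KO replicate 1, or TGFB1_KO replicates 1 or 2, while Hoxc5 and Hoxc6 were called without TGFB1_KO replicate 3.

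**Figure D5:**
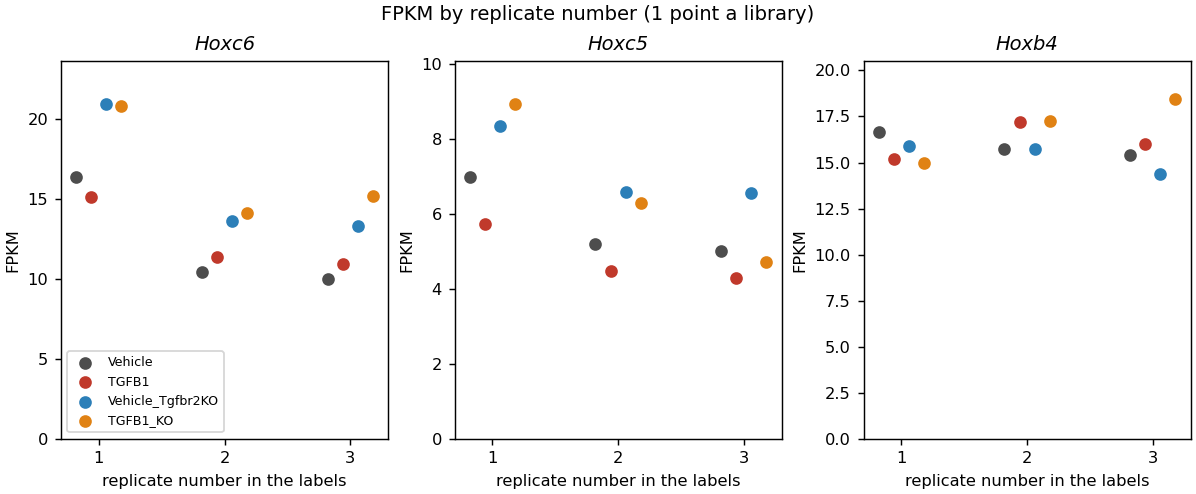
FPKM of Hoxc6, Hoxc5 and Hoxb4 by replicate number, with 1 point per library and the 4 groups told apart by colour. Hoxc6 and Hoxc5 are highest in replicate 1 within each group, while Hoxb4 shows no such order.

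What a replicate number stands for is not given in the sources used here. Endothelial marker sums were 4.84 to 6.58 FPKM in replicates 1, 1.28 to 18.2 in replicates 2 and 13.2 to 16.4 in replicates 3, and Vehicle_Tgfbr2KO replicate 1 had the highest epithelial sum at 64.9. The part of these in the values of Hoxc6 and Hoxc5 was not tested. Neither gene passed between treatments or genotypes in the fit of all 12 libraries without the number. With the number as a block in limma, Hoxc6 was higher in Vehicle_Tgfbr2KO than in Vehicle (adjusted p = 0.0135). It was also higher in TGFB1_KO than in TGFB1 (0.00108), as was Hoxc5 (0.0119). Hoxc5 passed there too without the number when TGFB1_KO replicate 3 was left out.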

How the data were processed

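Polyadenylated RNA was read in 12 libraries. The values used are FPKM, which the authors deposited as a single table with 1 row per gene symbol. The submitters' processing notes name kallisto (0.46.1), DESeq2 (1.40.1) and build mm9. How these led to FPKM, the scaling and the strand setting are not given in the sources used here. Annotation and sequences came from GENCODE M21 and RefSeq on GRCm38, so no mm9 coordinates are given.

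Group means over all 12 libraries were fitted to log2(FPKM + 1) with limma 3.58.1 in R 4.3.3, with empirical Bayes moderation, a variance trend and 8 residual degrees of freedom, over the 12641 genes that reached 1 FPKM in 3 or more libraries. P-values were adjusted by Benjamini-Hochberg over all of them, with a threshold of 0.05. The fit was run on simulated data with independent noise in each library, unlike the real libraries, which were partly correlated by replicate number. Changes were placed only in genes with higher means than Hoxa2 and Hoxa4, so the run does not cover such low members. The members and gene lists were chosen with earlier results of these data known. Values are given per library for members past the threshold in any comparison or by replicate number and for the 6 highest, and up to 3 genes are named per list, those past the threshold with the largest change in TGFB1 minus Vehicle. Hotairm1, Hottip, Hotair, the Cdx genes and the marker genes were named outside this rule, after their values were seen.

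All groups share replicate numbers. For libraries with the same number, the correlation over genes of their departures from the group mean was 0.391, 0.445 and 0.408 for Vehicle with TGFB1, and 0.588, 0.227 and 0.529 for Vehicle_Tgfbr2KO with TGFB1_KO. The number was therefore fitted as a block for the effect of TGF-beta 1, and is reported where it changed the call of a member; the pairing rests on these correlations, as no label explains the numbering. One of the tested members and 1 listed gene are not reported here. Alternatives covered the block, pseudocount, filter, scaling, variance trend, groups fitted and each library left out. Python 3.11.15 was used for sequences and plots.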

Additional observations from a re-analysis of the deposited data

Results flagged for a closer look

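The TGF-beta 1 response of Hoxb2 differed between the genotypes by -0.81 on the log2 scale (adjusted p = 0.00110, limma), from 0.89 without the knockout label to 0.08 with it. That of Hoxb9 differed by -0.95 (adjusted p = 0.0269), from 0.91 to -0.04. Both were noted because the difference itself passed the test. Tgfbr2 was still read at 27.0 to 62.4 FPKM in the knockout-labelled libraries, and its part in these differences was not tested.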

How the results depend on the processing

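Hoxb2 kept its direction and its side of the threshold in every alternative for TGFB1 minus Vehicle (log2 change 0.76 to 0.94), for TGFB1_KO minus TGFB1 (-1.22 to -1.05) and for the difference between genotypes (-0.89 to -0.72). With the replicate number as a block, 4 members were called for the difference between genotypes (4 also with the block within each genotype, added after seeing the data), 5 for Vehicle_Tgfbr2KO minus Vehicle (Hoxc6 higher, Hoxa2, Hoxa5, Hoxb2 and Hoxb3 lower), against 15% of all genes, and 7 for TGFB1_KO minus TGFB1 (Hoxc5 and Hoxc6 higher, Hoxb3 also lower), against 43.2%. The same fit called Tgfbr2 lower in both (adjusted p = 0.0450 and 0.0132) and, in Vehicle_Tgfbr2KO minus Vehicle, 2 TALE, 2 regional, 2 Polycomb and 1 trithorax or MLL gene lower. In these 2 comparisons same-numbered libraries did not all deviate together. Correlations were 0.336 and 0.337 for replicates 1 and 0.412 and 0.276 for replicates 3, but -0.0867 and 0.00945 for replicates 2. The pairing across genotypes was thus uneven, and no label explains the numbering. Leaving out 1 library at a time gave 2 to 4 members for TGFB1 minus Vehicle, 1 to 3 for the difference between genotypes, 0 to 3 for Vehicle_Tgfbr2KO minus Vehicle, 3 to 6 for TGFB1_KO minus TGFB1, 0 for TGFB1_KO minus Vehicle_Tgfbr2KO and 1 to 5 by replicate number, where Hoxa4 and Hoxb3 were added without TGFB1 replicate 3. Calls over all 12641 genes moved as well, by replicate number from 146 without Vehicle replicate 3 to 2159 without TGFB1 replicate 3. With a filter at 0.1 FPKM, Hoxd8 was higher in TGFB1_KO than in TGFB1 (log2 change 0.52, adjusted p = 0.0209) and Hoxa6 differed by replicate number (adjusted p = 0.0351). With no filter, Hoxc6, Hoxa6 and Hoxc9 differed by replicate number and Hoxc5 did not pass. Scaling to the upper quartile gave 1750 rises and 2105 falls over all genes in TGFB1 minus Vehicle. Depth is unknown, so for the 22 members left out of the tests a low FPKM does not say how many reads stood behind it.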

Other observations

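Transcription factors that mark regions of the gut mesenchyme also followed the replicate number, 7 of 27 tested members, against 9.59% of all tested genes (limma F-test). The genes named here were chosen after their values were seen. Barx1, a homeobox gene of the embryonic stomach mesenchyme, read 9.68, 4.70, 2.69 and 1.77 FPKM in replicate 3 of Vehicle, TGFB1, Vehicle_Tgfbr2KO and TGFB1_KO and at most 0.0484 in the 8 other libraries (adjusted p = 0.00784). Six2 read 4.02, 5.31, 1.11 and 1.05 FPKM in replicate 3 in the same order and 0.185 to 0.622 elsewhere (adjusted p = 0.0292).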
